A study of Mus musculus with 8 samples.

Results

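Gapdh, Gk, G6pd2 and Ldhal6b are the genes of carbohydrate metabolism among 15 genes that carry a RefSeq accession on a mouse array of 60915 non-control probes. They were taken by that accession and not by their values, although earlier results of these data were known. Each has 1 probe, printed on 20 spots of every array. Hippocampal RNA came from 7-day-old mice in 2 groups of 4 arrays. The propofol group received 50 mg/kg of propofol, an anaesthetic that acts on GABA-A receptors, by intraperitoneal injection, and the vehicle group received intralipid, the fat emulsion in which propofol is given. In both groups the hippocampus was taken after 3 h of exposure and 3 h of washout. Neither sex nor pooling of animals is given in the labels, so the spread between arrays may be technical in part. All propofol arrays were on slide 2 and all vehicle arrays on slide 1, and the effects of treatment and slide cannot be told apart.

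The 4 genes stand at different points of sugar and glycerol use. Gapdh encodes glyceraldehyde-3-phosphate dehydrogenase, the glycolytic enzyme that oxidizes glyceraldehyde 3-phosphate and is widely used as a reference transcript, and Gk encodes glycerol kinase, which phosphorylates glycerol so that it can enter glycolysis or lipid synthesis. G6pd2 is an autosomal retrocopy of the X-linked G6pdx, the gene of the first enzyme of the pentose phosphate pathway, which supplies NADPH. Ldhal6b is a lactate dehydrogenase relative of Ldha, whose product interconverts pyruvate and lactate. Retrogenes arise when a spliced messenger RNA is copied back into the genome, usually without the promoter of the parent gene, and G6pd2 and Ldhal6b are best known from the testis. The neonatal brain uses ketone bodies as well as glucose, and glycolytic capacity grows as it matures.

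The start regions of the 4 genes are shown because they set the retrocopy G6pd2 beside the genes whose levels it is compared with. Each is the RefSeq window of 300 bases, 250 before and 50 after the annotated start, in assembly GRCm38.p6, read 5′ to 3′ on the strand of the gene, with every CG pair in capitals. The Gapdh window is chr6:125165724-125166023 on the minus strand, the Gk window chrX:85776770-85777069 on the minus strand, the G6pd2 window chr5:61808593-61808892 on the plus strand and the Ldhal6b window chr17:5418718-5419017 on the minus strand.
Gapdh: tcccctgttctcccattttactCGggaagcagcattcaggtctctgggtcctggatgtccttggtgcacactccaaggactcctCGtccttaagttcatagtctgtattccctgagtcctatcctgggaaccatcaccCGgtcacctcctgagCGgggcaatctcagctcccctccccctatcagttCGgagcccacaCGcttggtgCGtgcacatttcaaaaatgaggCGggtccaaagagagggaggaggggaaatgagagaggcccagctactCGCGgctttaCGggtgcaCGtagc
Gk: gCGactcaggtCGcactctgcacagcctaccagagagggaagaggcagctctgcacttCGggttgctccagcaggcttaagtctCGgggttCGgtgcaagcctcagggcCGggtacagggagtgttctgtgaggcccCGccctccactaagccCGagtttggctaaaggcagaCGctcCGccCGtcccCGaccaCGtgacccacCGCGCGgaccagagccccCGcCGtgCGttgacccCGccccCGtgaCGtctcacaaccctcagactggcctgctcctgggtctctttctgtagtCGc
G6pd2: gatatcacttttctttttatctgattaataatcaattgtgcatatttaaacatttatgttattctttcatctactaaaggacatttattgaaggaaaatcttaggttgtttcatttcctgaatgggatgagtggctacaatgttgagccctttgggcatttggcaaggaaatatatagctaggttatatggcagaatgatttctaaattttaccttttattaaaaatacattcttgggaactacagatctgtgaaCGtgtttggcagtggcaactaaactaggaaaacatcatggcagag
Ldhal6b: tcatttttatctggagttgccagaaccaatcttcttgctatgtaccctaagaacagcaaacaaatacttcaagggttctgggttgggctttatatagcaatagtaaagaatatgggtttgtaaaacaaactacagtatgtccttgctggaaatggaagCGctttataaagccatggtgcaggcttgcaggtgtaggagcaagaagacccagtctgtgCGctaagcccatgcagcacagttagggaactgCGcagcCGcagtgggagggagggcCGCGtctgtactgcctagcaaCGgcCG

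The G6pd2 window held 1 CG pair, against 18 in the window of its parent G6pdx on chromosome X. Of 32851 mouse windows of this length, 94.6% held at least 1 and 14.1% at most 1, and the median was 7. The base composition of the G6pd2 window was 32.7% G and C, against 60.0% for G6pdx. The Gk window held 23 CG pairs and 3 copies of GGGCGG, counted on both strands, and its retrogene relative Gk2 held 5 CG pairs and no copy. The motif GGGCGG, which itself contains a CG pair, was in 35.7% of all windows. The Gapdh window held 12 CG pairs and no match to GGGCGG or TATAAA. The Ldhal6b window held 8 CG pairs, against 30 and 13 in the 2 annotated windows of Ldha. It had 3 matches to TATAAA counted on both strands, 2 of which overlap each other. That motif was found in 13.6% of all windows. These counts describe the letters in the windows only.

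Levels are log2 of the processed signal of a probe minus log2 of the 75th percentile of its array, averaged over the spots that the scanner software did not mark as outliers, so a difference of 1 is a doubling of signal on a probe. The 75th percentile itself, the brightness of an array, ran from 871 to 1006 signal units in propofol and from 656 to 991 in vehicle. All 160 spots of each of the 4 genes were well above background, and no spot was saturated. None of the 21 cell type markers set out for this tissue had a probe with a gene name, so the labelled tissue could not be checked against its markers. The probe sequences were not used here, so signal from the parents G6pdx and Ldha, or from pseudogene copies of Gapdh, cannot be told apart from that of the named gene. Neither parent had a named probe, and of 40 genes listed for glycolysis, the pentose phosphate pathway and glycerol use only these 4 had one.

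The Gapdh probe changed little from array to array. Its level was 8.13, 8.04, 7.89 and 7.90 on the 4 propofol arrays, against 7.93, 8.004, 7.99 and 7.88 on the 4 vehicle arrays. The groups overlapped, with propofol arrays 1 and 2 above every vehicle array and propofol arrays 3 and 4 inside the vehicle range. From the lowest to the highest array the level spanned 1.19-fold. The means were 7.99 ± 0.12 in propofol and 7.95 ± 0.06 in vehicle (SD, n = 4 each). Of 46848 tested probes that no array lacked, 98.3% had a spread within groups at least as large as that of Gapdh. Nearly all of those probes had 1 spot per array, whereas the Gapdh level is a mean over its spots. Its SD within groups of 0.092 was inside the 0.078 to 0.283 of the 11 other genes with an accession. The median processed signal of the Gapdh spots on an array ran from 158971.9 to 283636.4 units.

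Gk was more variable. Its level was -0.50, -0.76, -1.21 and -1.41 on the propofol arrays, against -1.44, -0.92, -0.59 and -1.08 on the vehicle arrays. High and low arrays occurred in both groups, and the whole range was 1.92-fold. The means were -0.97 ± 0.41 in propofol and -1.01 ± 0.35 in vehicle (SD, n = 4 each). Of the tested probes, nearly all with 1 spot per array, 27.7% had a spread within groups at least as large. Its SD within groups of 0.385 was above the 0.078 to 0.283 of the 11 other genes with an accession.

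G6pd2 ranged over 2.03-fold between arrays. Its level was 0.59, 0.87, 1.40 and 0.80 in propofol, against 1.21, 1.02, 0.42 and 1.44 in vehicle. The lowest and the highest array both belonged to the vehicle group, and the propofol arrays lay between them. The means were 0.92 ± 0.34 in propofol and 1.02 ± 0.44 in vehicle (SD, n = 4 each). A spread within groups at least this large was found in 26.6% of probes, nearly all with 1 spot per array. The SD within groups of G6pd2, 0.394, was above the 0.078 to 0.283 of the 11 other genes with an accession.

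Ldhal6b gave weak signal, with array medians of processed signal from 49.8 to 79.4 units. The local background was 23 to 31 units, and the processed signal is a value after background subtraction. Its level was -3.78, -4.18, -4.16 and -3.76 in propofol, against -3.77, -3.76, -3.79 and -3.78 in vehicle. Propofol arrays 2 and 3 lay below the other 6 arrays, which were between -3.79 and -3.76. The means were -3.97 ± 0.23 in propofol and -3.77 ± 0.01 in vehicle (SD, n = 4 each).

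**Figure D1:**
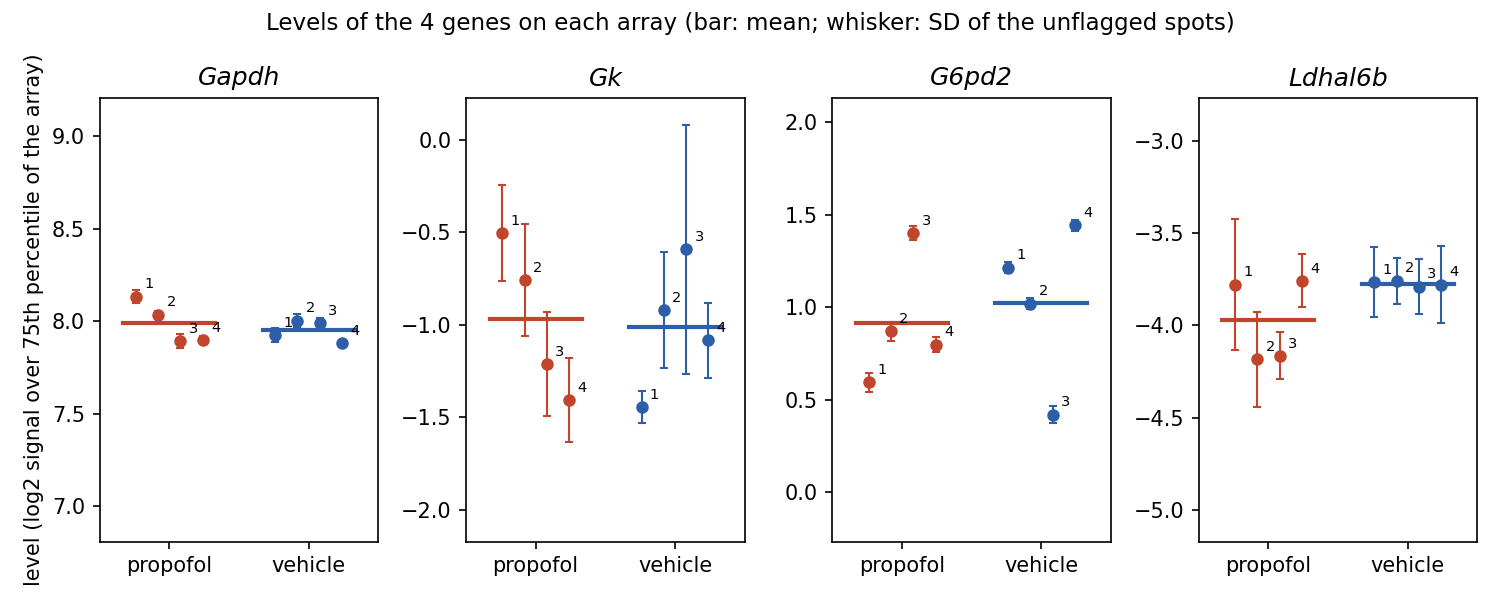
Level of each gene (log2 of signal over the 75th percentile of the array, vertical axis) on the propofol and vehicle arrays; points are arrays with their replicate numbers, whiskers the SD over the spots used, and bars the group means of 4 arrays. All panels span the same number of log2 units: Gapdh stays between 7.88 and 8.13, G6pd2 runs from 0.42 to 1.44, and the 4 vehicle arrays of Ldhal6b lie between -3.79 and -3.76.

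None of the 4 genes passed the comparison of propofol with vehicle, which asks which hippocampal transcripts differ at the end of the washout. In the limma fit over all 47777 tested probes, 0 probes passed an adjusted p of 0.05 (0.0%), and 3756 (7.86%) had an unadjusted p under 0.05. The groups did not overlap for 5.37% of 46848 probes, and for none of the 4 genes. The median absolute log2 difference over all tested probes was 0.16, with a median SE of 0.19.

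Gapdh differed by a log2 value of 0.04 (SE 0.12, adjusted p = 0.958 in limma), a 1.03-fold mean with a 95% interval from 0.857 to 1.23. The sign turned without propofol replicate 1, where the difference was -0.01. Gk also differed by 0.04 (SE 0.25, adjusted p = 0.981 in limma), but its interval was wider, from 0.697-fold to 1.52-fold. The Gk value was below 0 without propofol replicate 1 (-0.12), without propofol replicate 2 (-0.03) and without vehicle replicate 1 (-0.10), as well as with the outlier spots kept (-0.07) or with the spot median in place of the mean (-0.10), so no direction can be given for it.

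For G6pd2 the difference was -0.11 (SE 0.25) at an adjusted p of 0.946 in limma, with an interval from 0.624-fold to 1.38-fold and 3 of 4 propofol arrays below the vehicle mean. Single arrays of both groups moved it: it was -0.0013 without propofol replicate 1, -0.27 without propofol replicate 3, -0.07 without propofol replicate 4, -0.05 without vehicle replicate 1, -0.31 without vehicle replicate 3 and 0.03 without vehicle replicate 4. Ldhal6b had a difference of -0.20 (SE 0.14) at an adjusted p of 0.774 in limma, with an interval from 0.699-fold to 1.09-fold and 3 of 4 propofol arrays below the vehicle mean. Propofol array 1 was only just below it, at -3.780 against -3.773. Exact two-sided permutation over the 70 assignments of the arrays, whose smallest possible p is 0.0286, gave p = 0.514 for Gapdh, 0.886 for Gk, 0.686 for G6pd2 and 0.257 for Ldhal6b.

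**Figure D2:**
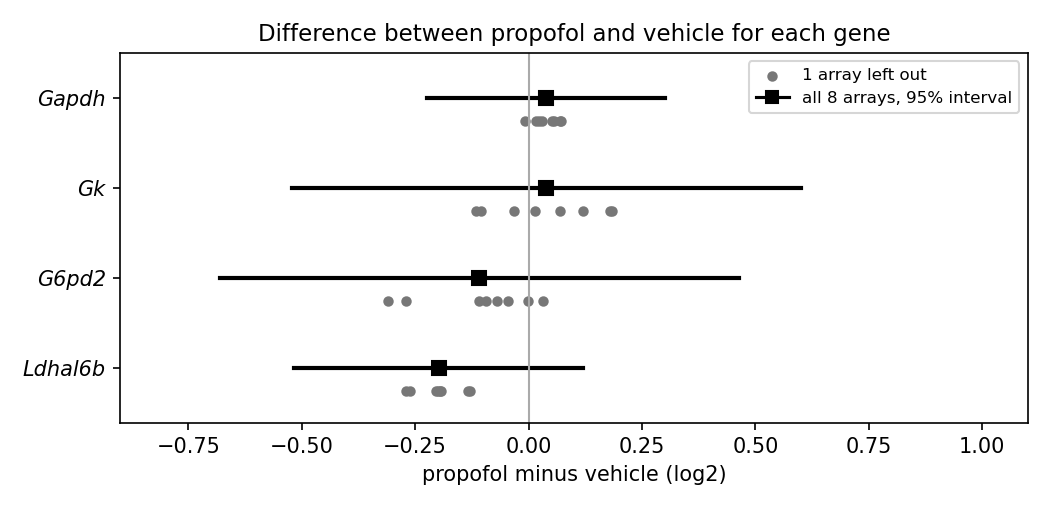
Propofol minus vehicle (log2, horizontal axis) for each gene; squares are the limma estimates from all 8 arrays with 95% intervals, and grey points the estimates with 1 array left out. Every interval includes 0, and the grey points of Gapdh, Gk and G6pd2 fall on both sides of it, while those of Ldhal6b run from -0.27 to -0.13.

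The replicate spots give the spread of a reading within 1 array. The spots of G6pd2 agreed closely. The SD over its spots on an array was 0.027 to 0.051, while the arrays differed by up to 1.02 on the same log2 scale. Only 1 of its 160 spots was marked as an outlier. The spots of propofol array 3 lay between 1.34 and 1.48, and those of vehicle array 3, the lowest, between 0.32 and 0.48, so the spots of these arrays did not overlap. The spots of Gapdh agreed as closely, with a median SD of 0.030, and for the 11 other genes with an accession this median SD was 0.022 to 0.048.

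Gk stood apart in this measure. Its median SD over spots was 0.27, and 49 of its 160 spots (30.6%) were marked as outliers, 18 on propofol arrays and 31 on vehicle arrays, against 0.625% to 6.88% of spots for the 11 other genes and 3.13% to 14.4% for 15 negative control probes. Propofol arrays 1 to 4 had 10, 6, 1 and 1 marked spots, and vehicle arrays 1 to 4 had 1, 6, 13 and 11. The spots used on vehicle array 3 ran from -1.34 to 0.17, which is wider than the range of the array means. With the marked spots kept, the level of Gk was -0.19, -0.60, -1.17 and -1.37 in propofol, against -1.42, -0.79, -0.22 and -0.62 in vehicle, and vehicle array 4, with 11 marked spots, moved most. Spots at the same place on different arrays were nearly unrelated for Gk, with a median r of 0.04 over pairs of arrays. This r was 0.24 for Gapdh, 0.45 for G6pd2, 0.49 for Ldhal6b and 0.10 to 0.64 for the 11 other genes. These values describe shared print positions and carry no test.

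The Ldhal6b spots were spread as well, with a median SD of 0.17 and 13 of 160 marked, 7 in propofol and 6 in vehicle. The 4 vehicle means nevertheless lay within an SD of 0.0144, which is below the SE of each of those means over its own spots, 0.030 to 0.047. Of these 46848 probes, 0.0213% had a vehicle SD as small as this, and 0.0512% had a ratio of propofol to vehicle SD as large as the 16.2 of Ldhal6b. With quantile normalization the pattern was not there: the level was then 5.88, 5.81, 5.82 and 5.90 in propofol, against 5.94, 5.98, 6.15 and 5.86 in vehicle. With the spot median the vehicle SD was 0.07.

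**Figure D3:**
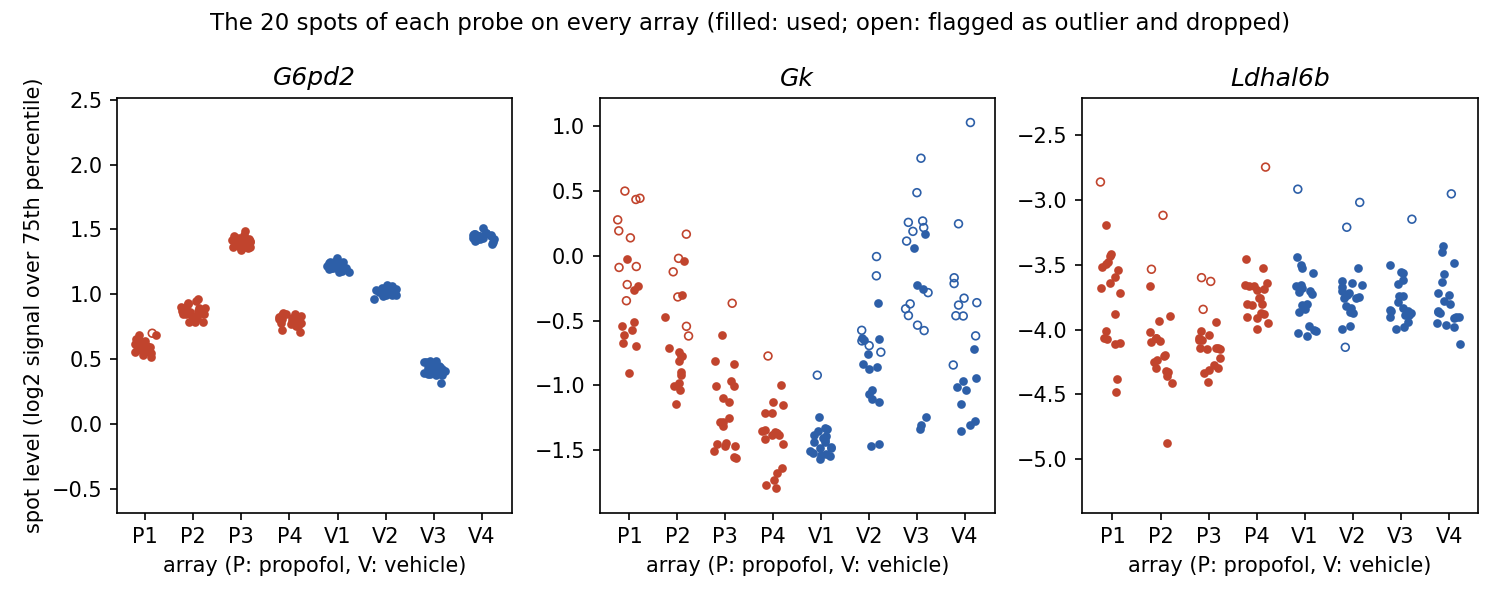
Level of every spot (log2 of signal over the 75th percentile, vertical axis) for G6pd2, Gk and Ldhal6b on propofol arrays P1 to P4 and vehicle arrays V1 to V4; filled points were used and open points were marked as outliers by the scanner software. The spots of G6pd2 form tight sets that move between arrays, those of Gk are scattered with 49 open points, and those of Ldhal6b are scattered around means that mostly coincide.

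Across the 8 arrays Gapdh and Gk tended to be high together, and G6pd2 to be low where they were high, but no pair passed after adjustment over the 6 pairs of genes. For Gapdh and Gk, Pearson's r was 0.830 (exact permutation p = 0.012, adjusted p = 0.072) and Spearman's rho 0.690 (exact permutation p = 0.0694, adjusted p = 0.249). Without propofol arrays 1 and 2, the farthest from the median of Gapdh, r was 0.701, and with each group centred on its mean it was 0.842. The sign depended on the scaling: after quantile normalization r was -0.554. As background, 2.36% of 46847 other tested probes correlated with Gapdh at least as highly as Gk did, and 3.16% with Gk at least as highly as Gapdh did.

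G6pd2 ran the other way. Its r was -0.668 with Gapdh (exact permutation p = 0.0694, adjusted p = 0.174) and its rho -0.667 (exact permutation p = 0.0831), with an r of -0.629 without propofol arrays 1 and 2 and of -0.658 centred within groups. Under quantile normalization this r was 0.855, again with the sign turned. With Gk the r of G6pd2 was -0.652 (exact permutation p = 0.0871, adjusted p = 0.174) and the rho -0.595 (exact permutation p = 0.132). It was -0.529 without propofol array 1 and vehicle array 1 and -0.652 centred within groups. No r is given for pairs with Ldhal6b, because its arrays fall into 2 separate sets, 1 of them with 2 arrays, but those pairs were counted in the adjustment. An r at least as low was found for 7.95% of other tested probes with Gapdh and 8.79% with G6pd2 in the pair of Gapdh and G6pd2, and for 10.6% with Gk and 9.58% with G6pd2 in the pair of Gk and G6pd2.

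Part of this covariation ran along with a measure read from other spots than those of the 4 probes, on the same RNA. The arrays carry 10 spots each of control probes named for mouse Pgk1, the next enzyme of glycolysis after Gapdh, with the suffixes 3 and 5, which the files do not define. The difference between these control probes, suffix 3 minus suffix 5 on the log2 scale, is called the Pgk1 contrast here. It was 8.88, 8.76, 8.39 and 8.32 in propofol, against 8.33, 8.66, 8.97 and 8.19 in vehicle. The groups overlapped, and their means of 8.59 ± 0.27 in propofol and 8.54 ± 0.35 in vehicle (SD, n = 4 each) did not differ beyond their spread (exact permutation p = 0.8).

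Gk followed the Pgk1 contrast with r = 0.891 (exact permutation p = 0.00608) and rho = 0.810 (exact permutation p = 0.0218), and Gapdh with r = 0.844 (exact permutation p = 0.0095) and rho = 0.786 (exact permutation p = 0.0279). G6pd2 was opposite, with r = -0.829 (exact permutation p = 0.0166) and rho = -0.738 (exact permutation p = 0.0458). With the suffix 3 and suffix 5 Pgk1 spots taken separately, r was 0.516 and -0.748 for Gk and 0.632 and -0.619 for Gapdh. For G6pd2 it was -0.339 and 0.784. The suffix 5 spots were much dimmer, with mean levels of -2.18 in propofol and -2.36 in vehicle, against 6.41 and 6.18 for suffix 3. Over the 16 relations of the 4 genes with 4 array measures, the adjusted p was 0.0507 for Gk and Gapdh and 0.0663 for G6pd2, so none passed. Other scalings or spot summaries moved them both ways. The adjusted p from exact permutation ran from 0.0325 to 0.151 for Gk, from 0.0488 to 0.215 for Gapdh and from 0.0476 to 0.237 for G6pd2. Without propofol array 1 and vehicle array 3, the farthest from the median contrast, r was 0.758 for Gk, 0.961 for Gapdh and -0.569 for G6pd2, and centred within groups it was 0.891, 0.850 and -0.829. Single arrays decided the call: the adjusted p was 0.0222 for Gapdh without vehicle array 3 (r = 0.961), 0.019 for Gk without vehicle array 4 (r = 0.980) and 0.0159 for G6pd2 without propofol array 4 (r = -0.963), each by exact permutation. After quantile normalization the r of Gapdh with the contrast was -0.703. Among 46848 tested probes, 2.40% had an r of at least this size with the contrast for Gk, 5.24% for Gapdh and 6.28% for G6pd2, while the median absolute r was 0.411.

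With the Pgk1 contrast taken out of both genes, the r of Gapdh with Gk was 0.320, against 0.830 before, that of Gapdh with G6pd2 was 0.106 and that of Gk with G6pd2 was 0.342. Each of these r is fixed by the r values given above and adds no test. With the contrast as a covariate in the limma fit, the SE of Gk fell to 0.15 and that of G6pd2 to 0.17, and the differences of propofol minus vehicle were 0.03 for Gapdh, -0.02 for Gk, -0.06 for G6pd2 and -0.20 for Ldhal6b. These fits were chosen after the data had been seen. What the contrast stands for on these arrays was not tested.

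**Figure D4:**
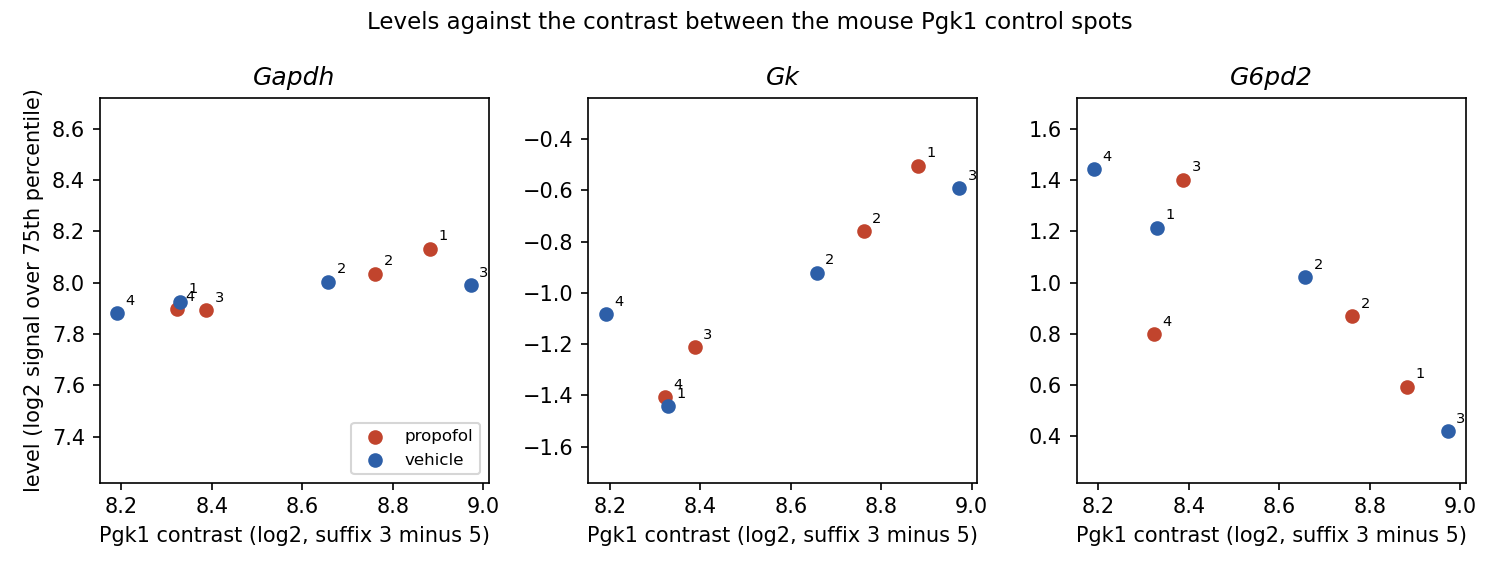
Level of Gapdh, Gk and G6pd2 (log2, vertical axes of equal span) against the Pgk1 contrast (log2, suffix 3 minus suffix 5, horizontal axis) on the 4 propofol and 4 vehicle arrays, with replicate numbers. Gapdh and Gk are higher and G6pd2 lower on the arrays with the higher contrast, with r of 0.844, 0.891 and -0.829, and both groups lie along the same trend; with quantile normalization the sign turns for Gapdh.

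The matching contrast of the mouse Gapdh control spots was -0.14, -0.11, -0.31 and -0.15 in propofol, against -0.50, -0.40, -0.02 and -0.62 in vehicle (exact permutation p = 0.2). Its r with G6pd2 was -0.856 (exact permutation p = 0.00873, adjusted p = 0.0507) and its rho -0.857 (exact permutation p = 0.0107). Without propofol array 3 the r was -0.944 and its adjusted p from exact permutation 0.0127. Without vehicle arrays 1 and 4 that r was -0.784, and centred within groups it was -0.924. With the suffix 3 and suffix 5 Gapdh control spots taken separately, the r of G6pd2 was -0.578 and 0.801. With Gapdh the contrast had an r of 0.535 (p = 0.171) and a rho of 0.595 (p = 0.132), and with Gk an r of 0.550 (p = 0.157) and a rho of 0.643 (p = 0.0962), all from exact permutation. Array brightness had an r of 0.751 with Gk (exact permutation p = 0.0213, adjusted p = 0.0683), with rho 0.738 (exact permutation p = 0.0458), and of 0.686 without propofol array 2 and vehicle array 1.

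The control spots also give a second reading of Gapdh on the same arrays. The suffix 3 spots read 7.39, 7.37, 7.23 and 7.20 in propofol, against 7.11, 7.19, 7.22 and 7.09 in vehicle. Their difference was 0.14 on the log2 scale with overlapping groups (exact permutation p = 0.0571, adjusted p = 0.343 over 12 control probes). The suffix 5 spots read 7.52, 7.48, 7.54 and 7.35 in propofol, against 7.61, 7.60, 7.25 and 7.71 in vehicle, a difference of -0.07 (exact permutation p = 0.543). Both readings of Gapdh overlapped between the groups with this scaling, and their differences had opposite signs. With the percentile taken over detected probes, the suffix 3 spots of propofol and vehicle did not overlap (difference 0.11, exact permutation p = 0.0286 before adjustment, the smallest possible).

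The Gapdh probe followed the suffix 3 spots with r = 0.810 (exact permutation p = 0.0128, adjusted p = 0.0256 over 2 relations) and rho = 0.643 (exact permutation p = 0.0962, adjusted p = 0.192). Centred within groups, this r was 0.940, but without the 2 arrays farthest from the median of the suffix 3 spots it was 0.373, so the relation rests on those arrays. Its adjusted p from exact permutation was also above 0.05 when propofol array 1 or 2 or vehicle array 1, 3 or 4 was left out, between 0.052 and 0.187. With the suffix 5 spots its r was -0.172 (exact permutation p = 0.681) and its rho -0.381 (exact permutation p = 0.36). The Pgk1 control spots differed between propofol and vehicle by 0.23 with suffix 3 (exact permutation p = 0.0571, adjusted p = 0.343) and by 0.18 with suffix 5 (exact permutation p = 0.343). For suffix 3 this unadjusted p was 0.0286 with the percentile over detected probes (difference 0.20) and with outlier spots kept (difference 0.23).

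Among the 14 other genes with an accession, those most like Gapdh, Gk and G6pd2 over the 8 arrays were named by Pearson's r, as a description. Gapdh was most like Tuba1b, an alpha-tubulin gene (r = 0.841), and then Gk. Gk was most like Gapdh and then Tuba1b (r = 0.432). G6pd2 was most like Nono, which encodes a nuclear RNA-binding protein of paraspeckles (r = 0.927), and Tbp, which encodes the TATA-binding protein (r = 0.820). No likeness is given for Ldhal6b, whose arrays fall into 2 separate sets. All these levels share the scaling of their array.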

How the data were processed

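RNA of 8 hippocampal samples was labelled with Cy3 along the whole transcript after removal of ribosomal RNA, per the labels' protocols, and each was read on 1 one-colour Agilent array. Per the file headers, Feature Extraction 11.0.1.1 of Agilent produced the spot intensity values and subtracted their background. A deposited table of log2 values by the authors lists 22032 probes and none of the 15 probes with an accession, so it served only for a count over all probes; its normalization is not given in the sources used here. Workbook sheets with titles and captions were not used.

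Control spots and 15 negative control probes were left out, spots marked as outliers (0.413%) were dropped, log2 signal was scaled to the 75th percentile of each array, and spots were averaged. Probes well above background on at least 4 of 8 arrays, with at least 2 unmarked arrays per group, were tested with limma 3.58.1 in R 4.3.3, with Benjamini-Hochberg adjustment. Single values and correlations were tested with exact two-sided permutation in Python 3.11.15 with numpy 2.4.6, over 40320 orders of 8 arrays for a correlation and 576 when centred within groups. Both were tested on simulated data. The number of arrays limits the precision.

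Accessions were matched without versions to RefSeq genes of GRCm38.p6, 15 of 15, and start windows to RefSeq promoters, 4 of 4. The named genes are the 4 genes, the 2 most correlated other genes for each (not given for Ldhal6b, whose arrays fall into 2 sets), the Gapdh and Pgk1 control spots, and all 40 listed pathway genes with a probe. The genes, lists and tests were chosen with earlier results of these data known. Alternatives were other spot summaries, scalings, background correction and filters, a replicate block, array weights, an intensity trend and leaving out each array.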

Additional observations from a re-analysis of the deposited data

How the results depend on the processing

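The array number limits every difference, and no alternative brought any of the 4 genes past an adjusted p of 0.05. With 1 array left out, propofol minus vehicle ran from -0.0088 to 0.071 for Gapdh, from -0.12 to 0.18 for Gk, from -0.31 to 0.031 for G6pd2 and from -0.27 to -0.13 for Ldhal6b, where the lowest adjusted p was 0.563. Gk also turned its sign with the spot median (-0.10), with outlier spots kept (-0.074) and with the Pgk1 contrast as a covariate (-0.016). The lowest adjusted p of Ldhal6b, 0.281, came with array weights, at -0.29. Over all probes the count past the threshold was 0 except with normexp background correction, where it was 3, and it was 0 with each array left out. The count at an unadjusted p under 0.05 was 3756 of 47777 probes, against 8339 with array weights and 2495 with the replicate block over the same probes. Over other totals it was 6206 of 60828 with no filter on dim probes and 1368 of the 22032 deposited probes. Fitting the replicate number as a block could not move the 4 differences, because each number holds 1 array of each group. The SE was then 0.16 for Gapdh, 0.28 for Gk, 0.30 for G6pd2 and 0.17 for Ldhal6b, with 0 probes past the threshold. Deviations of same-numbered arrays correlated at -0.33, 0.07, -0.11 and 0.22, and those of arrays with different numbers at -0.32 to 0.36. The numbers thus gave no sign of pairing, but these few correlations cannot exclude it. Of the pairs of genes, 0 passed as reported above and with each array left out, 1 passed with quantile normalization and 1 with normexp correction. That pair was Gapdh and G6pd2 (r = 0.855, exact permutation, adjusted p = 0.0429) with quantile normalization, with the sign turned, and Gapdh and Gk (r = 0.903, exact permutation, adjusted p = 0.0199) with normexp. Other correlations that turned were Gapdh with Gk under quantile normalization (-0.554), the Pgk1 contrast with Gapdh (-0.703) and the Gapdh contrast with Gapdh (-0.665) under the same, and, with the Pgk1 contrast taken out, Gapdh with G6pd2 (0.106) and Gk with G6pd2 (0.342). The Gapdh probe against the suffix 5 Gapdh control spots turned with median scaling (0.019), quantile normalization (0.870) and over a range from -0.367 to 0.071 with 1 array left out. Its r with the suffix 3 spots was 0.664 with the percentile taken over detected probes (exact permutation, adjusted p = 0.153) and 0.678 to 0.875 with 1 array left out. Correlations with the Pgk1 contrast passed for Gk with normexp (0.936), the spot median (0.895), median scaling (0.907) and the percentile over detected probes (0.870), for Gapdh with the spot median (0.832) and median scaling (0.884), and for G6pd2 with the percentile over detected probes (-0.864). They were weakest for Gk with outlier spots kept (r = 0.769, exact permutation, adjusted p = 0.151). For G6pd2 that was with quantile normalization (r = -0.648, exact permutation, adjusted p = 0.237). The Gapdh contrast with G6pd2 passed with the spot median (-0.853), the percentile over detected probes (-0.886) and quantile normalization (-0.929). The causes of these changes were not tested. The deposited values gave no value for the 4 genes.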

Other observations

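Control probes named for human and rat Gapdh are on the same arrays. G6pd2 ran closely with several of them, a pattern seen after looking at all 12 Gapdh and Pgk1 control probes and given with no test. Over the 8 arrays its r was 0.966 with the human suffix 5 spots, 0.953 with the rat suffix 5 spots and 0.918 with the rat suffix 3 spots. The human suffix 5 spots read 1.95, 2.20, 2.63 and 2.23 in propofol, against 2.47, 2.37, 1.77 and 2.99 in vehicle, so vehicle arrays 3 and 4 were the lowest and the highest there as they were for G6pd2. Among the 14 other genes, Tbp, which encodes the TATA-binding protein, was the most opposed to Gk, with r = -0.890, and was also chosen after its value was seen. Of 36 groups of 4 values examined for a single array apart from the rest, over the 4 genes, the 12 control probes and the 2 contrasts, 0 met a 95% limit that chance passes in about 1 of 20 groups.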
